A study of Mus musculus with 4 samples.

Results

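*Grb10*, its imprinted neighbours *Ddc* and *Cobl*, its relatives *Grb7* and *Grb14*, the receptors *Insr* and *Igf1r* and the receptor substrates *Irs1* and *Irs2* were followed through an RNA-seq comparison of mouse embryonic stem cells (mESCs). The members are these 9 named genes, of 37310 genes in the count table. *Grb10* was chosen by its normalized counts, which differed strongly between these same libraries, and the rest for their relation to it, with results of the comparison known. Differences between groups are therefore given for the members as descriptions without a test. The WT group is 2 libraries of the HATX line, which carries an *Xist* transgene that doxycycline can switch on, and the KO-labelled group is 2 libraries of *Spen* knockout clone 2 of the same line. Both are on a mixed genomic background and were grown in serum with LIF on gelatin, and the labels state no treatment. Each group is 1 cell line, and by the study's account the cells are haploid, so any other difference between the clone and the WT line cannot be told apart from *Spen*. The labels do not say whether the libraries of a group came from separate cultures, so the spread between them may be technical.

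*Grb10* encodes an adaptor that binds the activated insulin and insulin-like growth factor 1 (IGF1) receptors and dampens their signal, and it restrains growth of the embryo. It is imprinted: most mouse tissues use the maternal copy and neurons the paternal one. *Ddc*, which makes the enzyme that forms dopamine and serotonin, and *Cobl*, which makes an actin nucleator, flank it and show parent-of-origin expression in some tissues. Downstream of the receptors, Irs1 and Irs2 are the docking proteins that pass the signal to PI3K, AKT and mTOR.

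The start regions of *Grb10*, *Irs1* and *Irs2* are shown because these were the 3 members furthest apart between the groups. RefSeq windows of 300 bases, 250 before and 50 after a start site, covered 7 of the 9 members with 10 windows. There was no window for *Grb7* and *Insr*. The windows were drawn on GRCm38.p6, and each of the 10 was found once, without mismatch, in the NCBIM37 (mm9) sequence, the build of the counts, on which the coordinates below are given. *Grb10* has 2 windows, and capitals mark each CG dinucleotide, the base pair step at which DNA methylation is placed. The upstream window is at chr11:11937374-11937673 and the downstream one at chr11:11927925-11928224, both on the minus strand.
Grb10 upstream: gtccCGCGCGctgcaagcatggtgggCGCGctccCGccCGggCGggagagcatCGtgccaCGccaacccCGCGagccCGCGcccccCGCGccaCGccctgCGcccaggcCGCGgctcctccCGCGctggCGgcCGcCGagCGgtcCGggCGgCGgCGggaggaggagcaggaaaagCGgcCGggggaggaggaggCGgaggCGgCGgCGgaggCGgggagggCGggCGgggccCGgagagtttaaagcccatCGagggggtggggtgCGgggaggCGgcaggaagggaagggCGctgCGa
Grb10 downstream: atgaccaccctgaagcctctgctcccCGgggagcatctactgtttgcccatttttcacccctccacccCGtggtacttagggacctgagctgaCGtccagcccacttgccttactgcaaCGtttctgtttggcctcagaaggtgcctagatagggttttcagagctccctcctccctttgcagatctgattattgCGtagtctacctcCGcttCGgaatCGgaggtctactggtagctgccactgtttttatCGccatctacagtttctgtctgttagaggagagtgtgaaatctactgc
The upstream window held 45 CG dinucleotides at 80.0% G and C, and 98.1% of the 32851 windows in the table held fewer. The downstream window held 9 at 52.3% G and C, near the median window (7 and 52.7%). These windows give no sign of which start was used, because the counts are per gene.

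For *Irs1* (chr1:82287965-82288264, minus strand) and *Irs2* (chr8:11008880-11009179, minus strand), capitals mark the E-box CACGTG, bound by basic helix-loop-helix factors, and CAAAACAA, the letters of an insulin response sequence bound by FOXO factors. Both motifs were searched on both strands and were chosen after the windows had been read.
Irs1: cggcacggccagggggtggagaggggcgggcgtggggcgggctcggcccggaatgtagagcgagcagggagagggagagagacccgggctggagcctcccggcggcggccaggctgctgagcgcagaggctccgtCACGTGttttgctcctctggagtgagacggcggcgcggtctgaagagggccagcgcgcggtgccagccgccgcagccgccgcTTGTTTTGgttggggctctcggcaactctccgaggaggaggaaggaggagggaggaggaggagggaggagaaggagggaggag
Irs2: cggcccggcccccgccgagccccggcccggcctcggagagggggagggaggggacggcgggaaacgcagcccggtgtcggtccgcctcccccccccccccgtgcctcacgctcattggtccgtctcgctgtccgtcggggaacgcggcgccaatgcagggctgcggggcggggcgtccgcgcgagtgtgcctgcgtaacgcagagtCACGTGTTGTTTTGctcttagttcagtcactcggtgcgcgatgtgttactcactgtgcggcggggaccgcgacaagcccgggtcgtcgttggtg
Each of these windows held 1 match of each motif, and none of the other 8 member windows held either. In *Irs2* the match of CAAAACAA, on the opposite strand, follows the E-box directly. Among all windows 7.15% held the E-box, 2.51% held CAAAACAA and 0.155% (51 windows) held both. The longest runs that the *Irs1* and *Irs2* windows shared were 10 bases, GTCACGTGTT and TGTTTTGCTC, each present in 0.0761% of windows. In *Irs1* they began at -117 and -111 and in *Irs2* at -46 and -37 from the start site. These are matches of letters only.

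Library totals ranged from 36667685 to 61908422 counts, with the WT libraries the shallower ones. The targeted gene, *Spen*, had 3716 and 3047 normalized counts in WT and 7797 and 6242 in the KO-labelled libraries. It was higher by a log2 fold change of 1.05 ± 0.21 (DESeq2 adjusted p = 7.7e-06). The study describes a deletion of all or most of the gene, and the gene-level counts do not show that loss, so every direction given here rests on the label. The 5 embryonic stem cell markers summed to between 122142 and 123163 normalized counts in WT and between 118567 and 127493 in the KO-labelled libraries. Sums for other cell types were small and moved with the groups: 170 to 192 against 421 to 484 for 5 fibroblast markers, 289 to 366 against 164 to 192 for 4 primitive endoderm markers, 698 to 733 against 345 to 346 for 3 trophoblast markers, and 420 to 485 against 89.2 to 91.4 for neuroectoderm, for which 2 of 3 markers were in the table and *Pax6* was called lower. Called here means a 2-fold change and an adjusted p under 0.001 in DESeq2, the study's rule. The trophoblast sum was mostly *Eomes* (mean 648 in WT against 328). *Gata4* (173 against 78.9) and *Dab2* (122 against 72.1) made up most of the primitive endoderm sum, while *Gata6* and *Sox17* overlapped between the groups. Among the fibroblast markers *Thy1* was called higher (mean 128 in WT against 385) and *Col1a1* had 24.8 against 48.7, while *Col1a2*, *Col3a1* and *Dcn* had lower means in the KO-labelled libraries, all below 14. No listed marker was at 0 in all libraries, but *Elf5* had no count in the KO-labelled libraries, *Neurog2* none in 1 library of each group and *Dcn* none in 1 WT library. The part of such cells in the differences below was not tested, and in bulk RNA fewer cells of a type and less RNA per cell cannot be told apart.

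**Figure D1:**
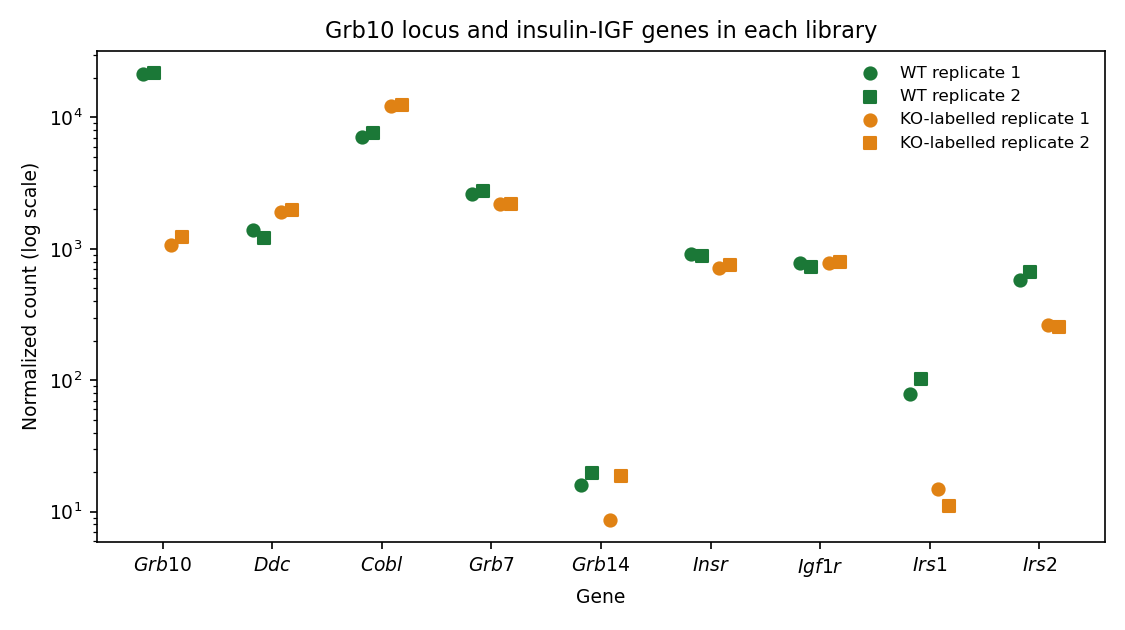
Normalized count (log axis) of each of the 9 genes in the 4 libraries; circles are replicate 1, squares replicate 2, green WT and orange KO-labelled. Grb10 is the highest gene in WT and is at 1072 and 1220 in the KO-labelled libraries, while Ddc and Cobl sit higher in the orange libraries and Grb14 is below 20 throughout.

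*Grb10* (ENSMUSG00000020176.10, chr11:11830511-11938686, minus strand, protein-coding, mm9) had 21274 and 21762 normalized counts in WT, that is counts divided by the size factor of the library. In the KO-labelled libraries it had 1072 and 1220. The KO-labelled libraries lay far below the WT ones, with means of 21518 ± 345 and 1146 ± 105 (SD, n = 2), an 18.8-fold lower mean. The log2 fold change (KO-labelled over WT, positive when higher in KO-labelled) was -4.23 ± 0.08 (SE). The RNA was reduced and not absent, since 1231 and 1559 reads were still counted. None of the 8451 stretches of 32 bases in its exons occurs elsewhere in the genome, and no exon of another gene overlaps it.

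The genes on either side went the other way. *Ddc* (ENSMUSG00000020182.9, chr11:11714104-11798047, minus strand) lies 32.5 kb from *Grb10*. It had 1389 and 1203 normalized counts in WT and 1906 and 1969 in the KO-labelled libraries, a log2 fold change of 0.58 ± 0.11 (SE). *Cobl* (ENSMUSG00000020173.10, chr11:12136611-12364963, minus strand) lies 198 kb away on the other side and had 7039 and 7583 normalized counts in WT against 12275 and 12467, a log2 fold change of 0.76 ± 0.07. In both genes every KO-labelled library was above every WT library, as in 35.4% of all genes tested. The means were 1.49 and 1.69 times those of WT, short of the 2-fold change that the study requires for a call. Genes of chromosome 11 as a whole had a median log2 fold change of 0.16, and with it removed the values were 0.42 for *Ddc*, 0.59 for *Cobl* and -4.39 for *Grb10*. Stretches of 32 bases with a copy elsewhere made up 3.15% of the exons of *Ddc* and 0.185% of those of *Cobl*.

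The locus was then taken out to 1 Mb on either side. It held 27 annotated genes, of which 16 had any count and 8 averaged 10 or more normalized counts. Besides the 3 members these were *Fignl1*, which makes a protein of DNA repair by recombination, *Ikzf1*, a transcription factor of lymphoid cells, *Zpbp*, a sperm gene, and the noncoding *1700042O10Rik* and *Gm12002*. *Fignl1* had 7454 and 7630 normalized counts in WT against 9653 and 9347, a log2 fold change of 0.33 ± 0.07 (DESeq2 adjusted p = 1.82e-05). With the median of chromosome 11 removed the log2 fold change of *Fignl1* was 0.17 and no longer passed an adjusted p of 0.05 (adjusted p = 0.0583). *1700042O10Rik* lies within *Ddc* on the other strand and had 31.8 and 56.6 against 94.9 and 79.8, with a log2 fold change of 0.97 ± 0.45 (DESeq2 adjusted p = 0.0825, edgeR 0.0228). *Ikzf1* had 74.2 and 78.4 against 56.6 and 40.7 normalized counts, a log2 fold change of -0.65 ± 0.43 (DESeq2 adjusted p = 0.269). *Zpbp* and *Gm12002* had log2 fold changes of -0.07 and 0.19 with standard errors of 0.71 and 0.53, too wide to place them. Leaving out single libraries moved *1700042O10Rik* between 0.63 and 1.46 and *Ikzf1* between -0.90 and -0.43.

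**Figure D2:**
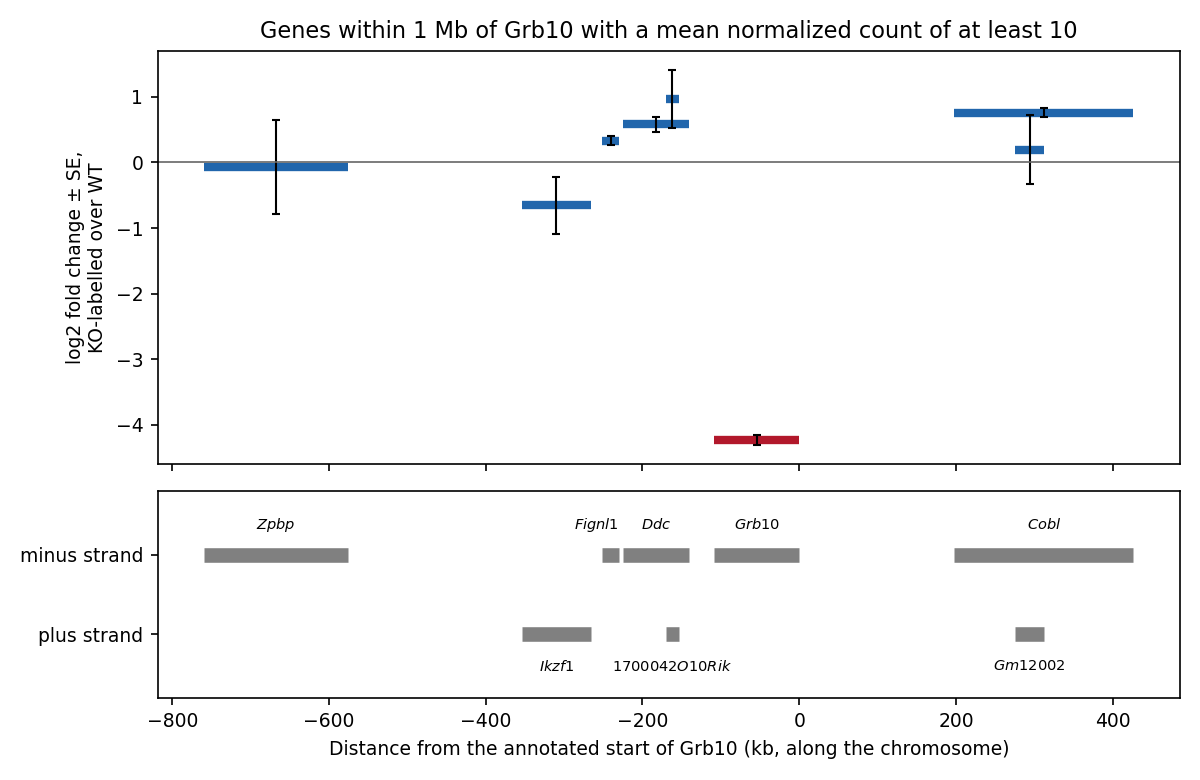
Top: log2 fold change of the 8 genes, drawn over the length of each gene body, with bars of 1 SE; Grb10 is red. Bottom: the strand of each gene. The x axis is the distance in kb from the annotated start of Grb10. Grb10 stands at -4.23, with Ddc at 0.58 and Cobl at 0.76 beside it.

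Within a library, neighbours can be compared by a ratio of levels per length, in normalized counts per 1000 exonic bases. *Cobl* stood at 0.372 and 0.392 times the level of *Grb10* in WT, against 12.9 and 11.5 times in KO-labelled cells, so that their order was exchanged. Most of that change lay in *Grb10*, whose mean was 18.8-fold lower, while the mean of *Cobl* was 1.69 times that of WT. *Cobl* stood at 2.71 and 3.37 times the level of *Ddc* in WT, against 3.44 and 3.39 times in KO-labelled cells, and WT replicate 2 was close to both KO-labelled libraries.

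*Grb7* and *Grb14* encode adaptors of the same family, with the same order of domains; Grb14 also binds the insulin receptor, and Grb7 is better known for binding ERBB2 and focal adhesion kinase. *Grb7* (ENSMUSG00000019312.4, chr11:98307708-98316687, plus strand) lies on the chromosome of *Grb10* but far from it. It had 2612 and 2734 normalized counts in WT and 2192 and 2196 in the KO-labelled libraries, a log2 fold change of -0.29 ± 0.09, and of -0.45 with the median of chromosome 11 removed. *Grb14* (ENSMUSG00000026888.8, chr2:64750533-64863044, minus strand) was close to silent, with 15.9 and 19.6 against 8.71 and 18.8 normalized counts and overlapping groups. Its log2 fold change of -0.37 ± 0.86 has a 95% interval from -2.05 to 1.32, and a difference was not detectable at this depth. Neither relative was seen to be higher in the KO-labelled libraries. Of the length-scaled RNA of the 3 relatives together, *Grb10* made up 74.9% and 74.4% in WT, against 15.2% and 16.9% in KO-labelled cells. *Grb7* made up 25.0% and 25.5% in WT, against 84.6% and 82.8%. Their summed level was 3100 and 3190 normalized counts per 1000 bases in WT, against 769 and 788.

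The receptors that Grb10 binds differed little. *Insr* (ENSMUSG00000005534.8, chr8:3150922-3279617, minus strand), the insulin receptor, had 906 and 884 normalized counts in WT against 721 and 748. Both KO-labelled libraries were below WT, as in 34.8% of all genes tested, with a log2 fold change of -0.28 ± 0.13. Its 95% interval of -0.54 to -0.03 is not adjusted for the number of genes and is no test. With the replicate number as a block the SE was 0.17. *Igf1r* (ENSMUSG00000005533.8, chr7:75097713-75371484, plus strand), the IGF1 receptor, had 781 and 725 against 778 and 800, with overlapping groups. Its log2 fold change was 0.07 ± 0.14 (95% interval -0.20 to 0.33), and with the median of chromosome 7 removed it was -0.03. Per length, *Grb10* stood at 13.3 and 14.7 times *Igf1r* in WT, against 0.673 and 0.745 times in KO-labelled cells. Relative to *Insr* it went from 24.8 and 25.97 times to 1.57 and 1.72 times.

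Both receptor substrates were lower, and *Irs1* more so. *Irs1* (ENSMUSG00000055980.2, chr1:82229676-82287991, minus strand) had 78.2 and 102 normalized counts in WT and 14.8 and 10.96 in the KO-labelled libraries, which rest on 17 and 14 reads. The log2 fold change was -2.82 ± 0.52, a 7.01-fold lower mean. *Irs2* (ENSMUSG00000038894.6, chr8:10986980-11008458, minus strand) had 575 and 670 against 265 and 254, a log2 fold change of -1.26 ± 0.18 and a 2.40-fold lower mean. In neither gene did the groups overlap, and KO-labelled libraries lay below WT in 34.8% of all genes tested. The exons of *Gm9747*, on the other strand, overlap 30.9% of the exonic bases of *Irs1*, and those of *9530052E02Rik* overlap 4.03% of *Irs2*. Both overlapping genes had 0 counts in every library. *Irs2* was the main substrate of the pair: per length it stood at 16.7 and 14.9 times *Irs1* in WT and at 40.6 and 52.8 times in the KO-labelled libraries.

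**Figure D3:**
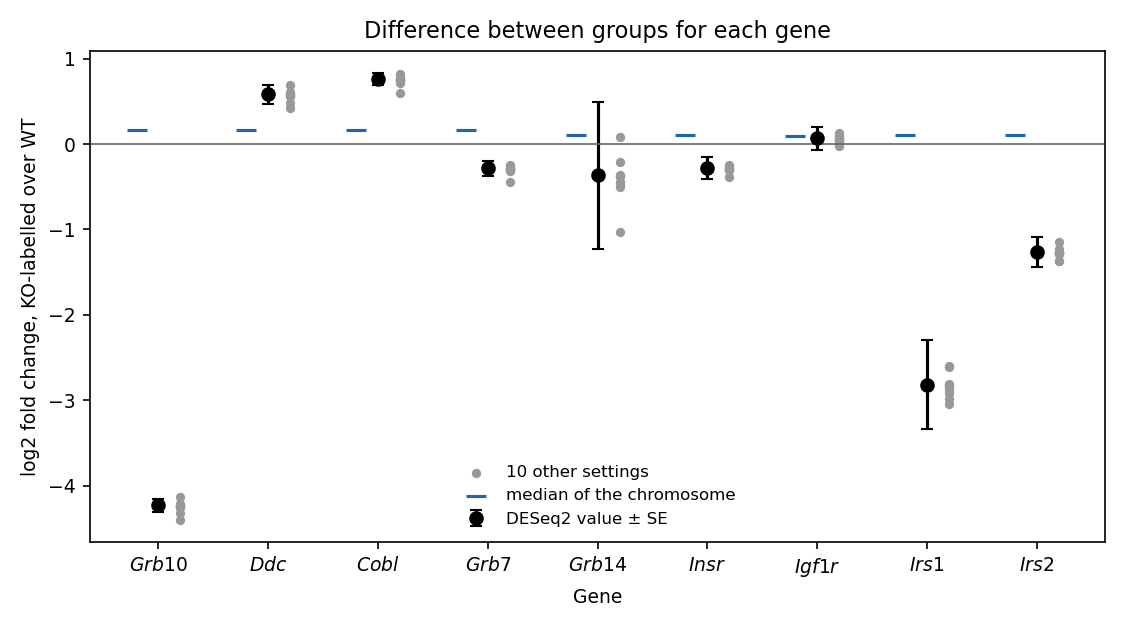
Log2 fold change of each gene, KO-labelled over WT; black points with bars are the DESeq2 value and 1 SE, grey points the values under 10 other settings, and blue dashes the median of genes on the same chromosome. Grb10, Irs1 and Irs2 stay below -1 in every setting, Ddc and Cobl stay above 0, and Grb14 and Igf1r fall on both sides of 0.

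Under the study's call rule *Grb10*, *Irs1* and *Irs2*, 3 of the 9 members, carried the label lower and 0 carried the label higher. This is a description of members chosen on this comparison and not a test of them. Over all 17710 genes, 4.51% carried the label, 3.15% as lower and 1.36% as higher. Libraries of the groups did not overlap in 7 members, 5 lower and 2 higher, and over all genes that was so for 70.2%. The members were chosen with this comparison known, and nothing is read from these shares.

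Ordered by level per length, WT libraries ran from *Grb10* at 2348 ± 37.7 normalized counts per 1000 bases (SD, n = 2) through *Cobl* (898), *Grb7* (794), *Ddc* (298), *Igf1r* (168), *Irs2* (155), *Insr* (92.6) and *Irs1* (9.87) to *Grb14* (2.47). The values of *Igf1r* and *Irs2* overlapped, and every other neighbouring pair in this order was separate. In the KO-labelled libraries *Cobl* came first at 1519 ± 16.7, followed by *Grb7* (652), *Ddc* (445), *Igf1r* (176), *Grb10* (125), *Insr* (76.0), *Irs2* (64.5), *Grb14* (1.91) and *Irs1* (1.41). Here *Grb14* and *Irs1* overlapped. *Grb10* went from above 93.04% of protein-coding genes with a count to above 52.6%, while *Cobl* went from above 82.8% to above 88.7%.

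**Figure D4:**
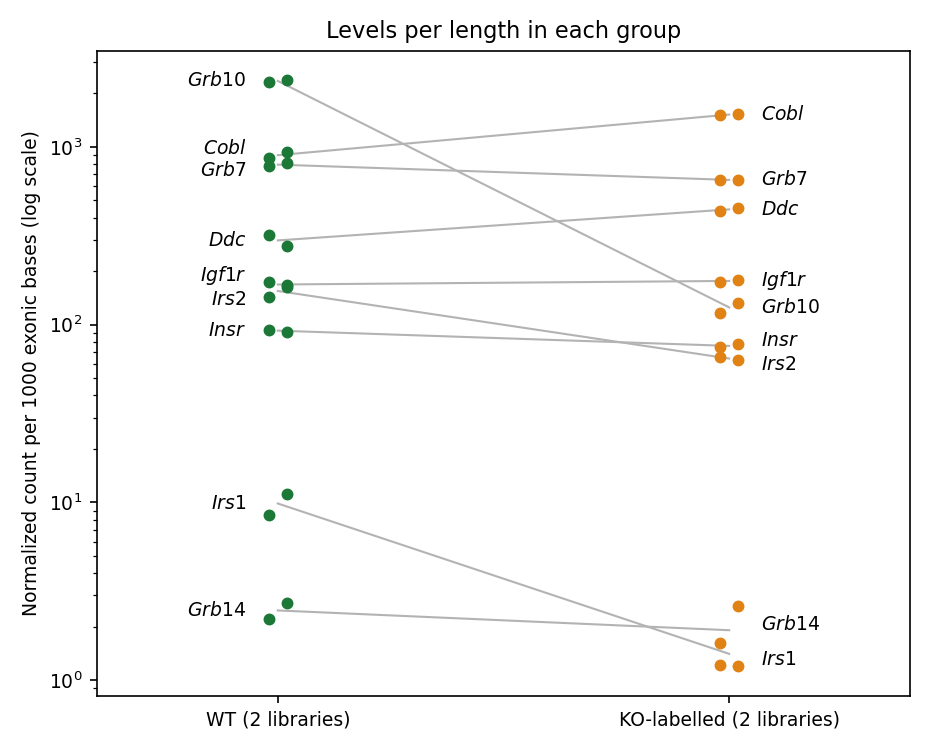
Normalized count per 1000 exonic bases (log axis) in WT (green) and KO-labelled (orange) libraries, with a grey line joining the group means of each gene. The line of Grb10 crosses those of Cobl, Grb7, Ddc and Igf1r, from 2348 to 125.

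To place the members in their pathway, 65 other genes of insulin and IGF signalling were taken by role, of which 60 were tested. At an adjusted p under 0.05 in DESeq2, 13 rose and 16 fell, 48.3% of those tested against 32.3% of all genes. By the study's call rule 5 fell (8.33%, against 3.15% of all genes) and 0 rose, and edgeR called the same 5. Fits without 1 library called 4 or 5, and with chromosome medians removed *Ide* was called in place of *Ptprf*. The median log2 fold change of the list was -0.05, against 0.00489 for all genes. The counts at an adjusted p under 0.05 depend on the number of libraries. When any 1 library was left out, fewer list genes passed, and the share of all genes that passed fell as well. With chromosome medians removed 9 list genes were higher and 10 lower, 31.7% of those tested against 27.2% of all genes.

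Among ligands, *Ins1* and *Ins2* had no count and *Igf1* was too low to be tested. *Igf2*, the imprinted fetal growth factor, had 54.4 and 88.2 normalized counts in WT against 34.8 and 45.4, a log2 fold change of -0.83 ± 0.47 (DESeq2 adjusted p = 0.182, edgeR 0.0476). It ran from -1.13 to -0.43 when 1 library was left out, the latter without WT replicate 2. *Igf2r*, an imprinted receptor that clears IGF2, had 4786 and 4770 against 3901 and 4153, with a log2 fold change of -0.25 ± 0.08 (DESeq2 adjusted p = 0.0084). That was no longer under 0.05 when any 1 library was left out (adjusted p from 0.0552 to 0.222) and when the median of chromosome 17 was removed (log2 fold change -0.11, adjusted p = 0.333).

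Of 7 IGF-binding proteins tested, which hold IGFs outside the cell, 4 fell and 1 rose at an adjusted p under 0.05 in DESeq2. That was 71.4% of them, against 32.3% of all genes, and no role was tested as a set. *Igfbp7* fell most, from 229 and 229 to 52.2 and 52.4 normalized counts (log2 fold change -2.13 ± 0.30, DESeq2 adjusted p = 2.33e-11); exons of other genes on the opposite strand overlap 7.01% of it. *Igfbp3*, on chromosome 11 like *Grb10*, fell from 685 and 672 to 319 and 325 (log2 fold change -1.08 ± 0.16, DESeq2 adjusted p = 4.21e-10).

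Among 11 adaptors 2 fell and 2 rose at an adjusted p under 0.05 (36.4%, against 32.3% of all genes). *Gab1*, a docking protein that resembles the Irs proteins in recruiting PI3K, fell from 10754 and 11172 to 4641 and 4899 normalized counts (log2 fold change -1.20 ± 0.07, DESeq2 adjusted p = 2.79e-58). *Gab1* lies on chromosome 8, as *Irs2* does, and the median log2 fold change of that chromosome was 0.10.

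The 11 partners of Grb10 and inhibitors of the pathway held 3 genes that fell and 1 that rose at an adjusted p under 0.05. That was 36.4%, near the 32.3% of all genes. *Ptprf*, a receptor phosphatase, fell from 6011 and 6042 to 3016 and 2995 normalized counts, a log2 fold change of -1.004 that stands at the 2-fold line (DESeq2 adjusted p = 6.95e-37). *Ptprf* was not called with the median of chromosome 4 removed (-0.80), nor without WT replicate 2 (-0.996) or KO-labelled replicate 2 (-0.995). *Ide*, the insulin-degrading protease, fell by 0.86 on the log2 scale (DESeq2 adjusted p = 1.48e-34), and by 1.25 with the median of chromosome 19 removed.

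In the PI3K and AKT group 2 of 9 genes fell and 2 rose at an adjusted p under 0.05 (44.4%, against 32.3% of all genes). *Pik3r1*, the regulatory subunit through which PI3K docks on Irs proteins, fell from 566 and 455 to 234 and 223 normalized counts (log2 fold change -1.16 ± 0.20, DESeq2 adjusted p = 4.49e-08), but it was not called without WT replicate 1 (-0.99, adjusted p = 0.00528). *Akt1* fell by 0.37 (DESeq2 adjusted p = 0.000183), but it lies on chromosome 12, whose median was -0.32, and with that removed the log2 fold change was -0.05 (adjusted p = 0.742).

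Of 14 mTOR genes 6 rose and 2 fell at an adjusted p under 0.05 (57.1%, against 32.3% of all genes). The call rule was met by 0 of them, against 4.51% of all genes. *Rps6kb2*, an S6 kinase, rose by 0.72 ± 0.12 (DESeq2 adjusted p = 3.29e-08), and by 0.34 with the median of chromosome 19 removed. *Tsc1*, part of the complex that restrains mTORC1, rose by 0.43 ± 0.09 (DESeq2 adjusted p = 3.01e-05). Of 6 FOXO and GSK3 genes 2 fell and 1 rose at an adjusted p under 0.05, a threshold that 32.3% of all genes passed. *Foxo1*, the factor that insulin keeps out of the nucleus, had 996 and 1322 against 879 and 859 normalized counts, a log2 fold change of -0.42 (DESeq2 adjusted p = 0.0149) that was -0.19 without WT replicate 2 (adjusted p = 0.539), and it was also not under 0.05 without KO-labelled replicate 1 or 2 (adjusted p = 0.130 and 0.166). *Gsk3a*, a kinase that AKT inhibits, had a log2 fold change of 0.28 (DESeq2 adjusted p = 0.00831), and 0.19 with the median of chromosome 7 removed (adjusted p = 0.117), and its adjusted p stayed under 0.05 without WT replicate 2 but not without any other library. Exons of other genes on the opposite strand overlap 12.1% of the exonic bases of *Foxo1* and 19.3% of those of *Gsk3a*.

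**Figure D5:**
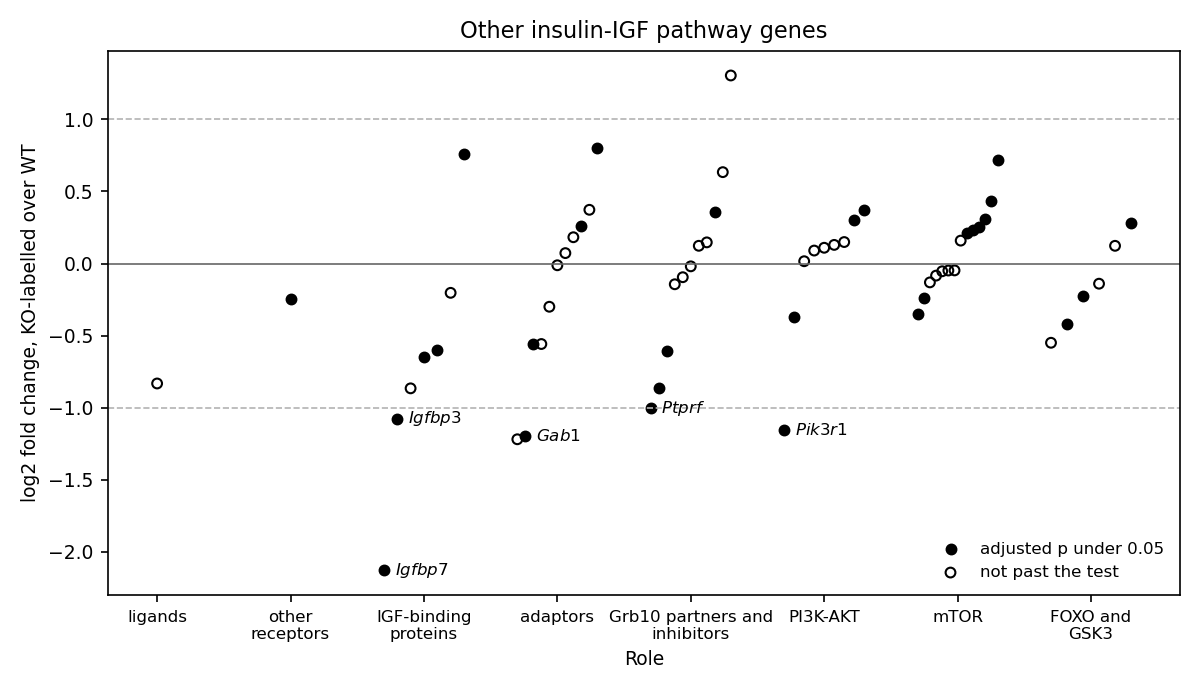
Log2 fold change, KO-labelled over WT, of the 60 tested pathway genes by role; filled points had a DESeq2 adjusted p under 0.05, and dashed lines mark a 2-fold change. The 5 named genes lie at or below -1, and no filled point lies above 1.

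Last, the genes whose pattern over the 4 libraries was most like *Grb10* were sought among the 12317 protein-coding genes that averaged 50 or more normalized counts, by the Euclidean distance between log2(normalized count + 1) values centred on the mean of each gene. They were *Calml4* (distance 0.190), *Glyatl3* (0.232), *Xlr3a* (0.248), *T* (0.541) and *Meis1* (0.580). *Calml4*, which makes a calmodulin-like protein, went from 1263 and 1221 to 54.9 and 60.3 normalized counts. *Meis1*, a homeobox factor on chromosome 11, had 198 and 215 against 15.7 and 14.1. With 4 libraries in 2 groups, the distance reflects little more than a like fold change. *Xlr3a* belongs to a family of near-identical copies and 12.1% of the exonic bases of *Meis1* overlap *Gm16140* on the other strand, so their counts are uncertain.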

How the data were processed

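The authors prepared stranded libraries from ribosomal RNA-depleted total RNA, mapped paired reads to mm9 with STAR and assigned them to GENCODE vM1 genes with featureCounts; the deposited values are raw counts per gene. Versions, strand setting and treatment of multi-mapped reads are not given in the sources used here. Even values made up 64.0% to 66.5% of deposited counts between 1 and 20, so mates appear to have been counted singly in part, and counts overstate independent fragments.

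The table of 37310 genes, 11918 of them without a count, was fitted with DESeq2 1.42.0 in R 4.3.3 (group alone, default size factors), and the 17710 genes given an adjusted p (Benjamini-Hochberg) are those described as tested. The call rule was the study's, while the looser threshold, an adjusted p under 0.05 without a fold minimum, was not. edgeR 4.0.16 was an alternative. Both were run on simulated counts with the same dispersion for every gene, which checks the code and not how the tools act on these data. Groups came from sample titles. Positions and union exonic lengths came from GENCODE vM1, whose identifiers matched every gene. Chromosome medians used genes averaging 50 or more normalized counts. Intervals are 1.96 SE either side. Replicate numbers did not pair the libraries (correlation of deviations -0.018 over 13306 genes).

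Members and lists were chosen with earlier results of these data known. Named were all members, *Spen*, locus genes averaging 10 or more, the 5 genes most like *Grb10*, and of the pathway list *Igf2*, *Igf2r*, called genes and the 2 most changed per role among those with an adjusted p under 0.05 and a mean of 50 or more. *Gm9747*, *9530052E02Rik*, the marker genes and the untested ligands were named after their values were seen. 1 gene that this rule names is not reported here.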

Additional observations from a re-analysis of the deposited data

How the results depend on the processing

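Over all genes, 241 were called higher and 558 lower. An adjusted p under 0.05 with the 2-fold minimum gave 371 and 852, and 0.001 without a fold limit 1499 and 1571, as looser thresholds must. The latter gave 6 pathway genes higher and 10 lower, against 0 and 5. With the replicate number as a block, 7 pathway genes were higher and 10 lower at an adjusted p under 0.05 (28.8%, against 24.3% of all genes), against 13 and 16, while the 5 called genes stayed called and *Grb10* stayed at -4.23. Of the named pathway genes, *Foxo1*, *Gsk3a* and *Igf2r* were not under 0.05 in the block. With chromosome medians removed, 9 pathway genes were higher and 10 lower at that threshold and *Grb10* was at -4.39; *Ide* was then called and *Ptprf* was not. The cause of these shifts was not tested.

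Fits without 1 library, in which the lone library of a group is assumed to vary like the other group, called 137 to 185 genes higher and 332 to 404 lower, with fewer libraries in each. They put the median log2 fold change of the pathway list between -0.05 and 0.05 (-0.0497 and 0.0515). Fewer pathway genes passed an adjusted p under 0.05 than with all libraries, and so did a smaller share of all genes. *Pik3r1* was not called without WT replicate 1, nor *Ptprf* without WT replicate 2 or KO-labelled replicate 2. *Grb10* ran from -4.32 to -4.13. Of 80 values of the other 8 members under 10 settings, 68 shifted by less than 1 replicate SD and 12 by more. With 2 libraries per group, leaving out 1 can hardly shift a value by more than that SD, so the tally does not measure stability. *Irs1* and *Irs2* changed sign in none of the settings. *Grb14* and *Igf1r* each changed sign in 1 setting. TMM factors, a low-count filter, edgeR and halved counts (chosen after seeing the data) kept counts within 1.5 times. With a pseudocount of 10, 2 of the 5 genes most like *Grb10* remained, *Calml4* and *Xlr3a*. Depth limits *Grb14* and *Irs1*, at 10 to 24 and 14 to 94 reads.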
